A study of Mus musculus with 9 samples.

Results

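Cells build triglyceride, their storage fat, by attaching fatty acids to a glycerol backbone. In the glycerol phosphate route, which most cells use, the 1-acylglycerol-phosphate acyltransferase Agpat2 makes phosphatidic acid, a lipin (Lpin1, Lpin2 or Lpin3) removes the phosphate to leave diacylglycerol, and Dgat1 or Dgat2 adds the last fatty acid. In the monoacylglycerol route, best known from the lining of the small intestine, Mogat1 or Mogat2 makes the diacylglycerol from monoacylglycerol. Plin2 coats the lipid droplets that hold the product in most cells outside fat tissue, and Pnpla2, also called adipose triglyceride lipase, takes the first step of their breakdown. Muscle fibres keep such droplets as a fuel store.

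The 10 genes described here are those named above, found by symbol among the 54697 lines of the deposited gene count table. The set was chosen by the counts of Mogat2, which were higher in treated cells, so the values of Mogat2 are given as a description, with no test, and the other 9 genes belong to the same pathway by function. Each symbol matched 1 line, and 9 of the 10 genes passed a filter on low counts and entered the fit over 14066 genes. The exception was Mogat1.

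The RNA came from C2C12, an established mouse myoblast line labelled as wild type, kept in DMEM with fetal bovine serum. After attaching, cells received butyrate (the treatment protocol writes butyric acid) or pentanoate, both at 750 µM for 48 h. Control and treated cells are all labelled day 2. Butyrate and pentanoate are straight-chain short fatty acids, and the chain of pentanoate is the longer of the pair. The sources used here do not say what the control cells received, nor whether libraries with the same label are separate cultures. Each p-value therefore measures the spread among these libraries, which may be technical.

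Library totals ran from 15829262 to 19305981 counts. Control 3 stood apart, with 3.95% of its counts from the mitochondrial genome against 1.79% to 2.32% in the other 8 libraries. Of 11 myoblast markers 10 were tested, among them Des (822 ± 221 CPM in control) and Myod1 (84.3 ± 13.1), while Msc had 5 counts in all. Levels are in CPM, a gene's count scaled to its library's effective size, and errors are SD with n = 3 libraries unless stated otherwise. Of the 10 tested myoblast markers 2 fell with butyrate (Myod1, to 45.5 ± 10.1 CPM, and Megf10) and 1 rose (Myf5, from 29.8 ± 6.65 to 44.3 ± 2.43). Of all genes 4.95% fell and 6.43% rose. The markers that rose numbered 0 with only control and butyrate in the fit, and without control 1, control 2 or any butyrate library. Those that fell numbered 1 without control 1, butyrate 2 or butyrate 3, and 5 without control 3. With the replicate number as a block 5 fell and 1 rose, where that fit called 20.7% of all genes. Of 15 markers of muscle differentiation 12 were tested and 8 fell with butyrate, where 4.95% of all genes fell. The 8 include Myh3 (2 ± 1.42 CPM in control, 0.277 ± 0.167 with butyrate) and Mybph (1.11 ± 0.394 and 0.118 ± 0.155). Both passed the filter on low counts through the control libraries, where they were highest, so their place among the falls is partly set by the filter. Differentiation markers that fell numbered 2 without butyrate 2, 3 without butyrate 3 or control 1, 5 by limma-voom and 10 with the block. The summed level of the 15 was 13.5 to 20.3 CPM against 40.4 to 70.9 in control and 34.9 to 59.7 with pentanoate. What part this has in the results below was not tested. These are bulk samples, in which fewer cells of a type and less RNA per cell cannot be told apart.

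Mogat2 (ENSMUSG00000052396, GRCm38 chromosome 7, 99219084 to 99238619, minus strand, protein-coding) was the member for which the genes were chosen. Its level was 2.15, 1.84 and 2.20 CPM in control libraries 1 to 3. With butyrate it was 12.5, 14.6 and 15.7 CPM, and with pentanoate 5.12, 5.46 and 6.50 CPM. All butyrate libraries lay above all pentanoate libraries, and these above all control libraries, with no overlap between any pair of groups. Over each group these values rest on 104, 714 and 316 counts. The ratio of summed CPM was 6.91 for butyrate to control (95% exact counting interval 5.62 to 8.57) and 2.76 for pentanoate to control (2.20 to 3.48), intervals that cover counting error only. Pentanoate stood at 0.399 of butyrate (0.349 to 0.457), at the same dose and time.

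Mogat1 (ENSMUSG00000012187, chromosome 1, 78510991 to 78538173, plus strand), the other monoacylglycerol acyltransferase of the list, had 3 counts in butyrate library 3 and 0 in the other 8 libraries. A count of 0 over the control group allows up to 0.0594 CPM, and over the pentanoate group 0.054 CPM. No ratio is given for it.

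**Figure D1:**
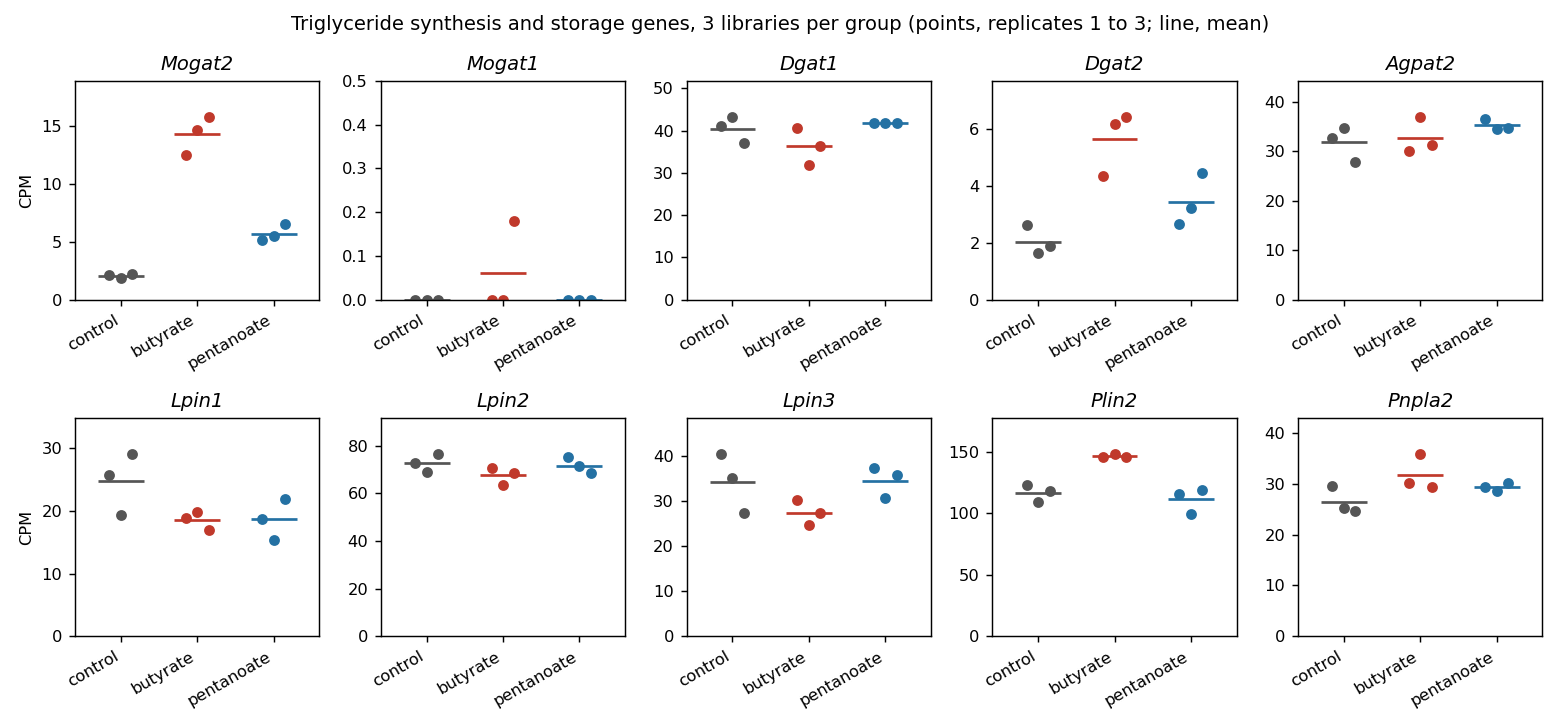
CPM (y axis, from 0) of each of the 10 genes in every library, by group (x axis); points are replicates 1 to 3 from left to right and lines are group means. Mogat2 and Dgat2 are lowest in control and highest with butyrate, Plin2 is highest with butyrate at 146 to 148 CPM, and in the remaining panels the butyrate and control points overlap.

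Of the 2 enzymes that finish triglyceride, Dgat2 rose with butyrate and Dgat1 was not called. Dgat2 (ENSMUSG00000030747, chromosome 7, 99153658 to 99182719, minus strand) had 2.62, 1.62 and 1.88 CPM in control, 4.35, 6.16 and 6.39 with butyrate and 2.64, 3.20 and 4.46 with pentanoate. The lowest butyrate library was above the highest control library, and pentanoate libraries 1 and 3 lay close to control and to butyrate respectively. The rise with butyrate was 1.46 on the log2 scale (SE 0.28, 95% interval 0.85 to 2.07, adjusted p = 0.00738 by edgeR's quasi-likelihood test), or 2.75-fold. A gene was called where the p-value adjusted over all 14066 genes was under 0.05, and for butyrate against control 11.4% of genes were called, 6.43% higher and 4.95% lower, and in 29.1% the 3 and 3 libraries did not overlap (14.1% higher, 14.9% lower). Of the calls 56.5% were higher, and 68.8% with upper-quartile scaling. With pentanoate the Dgat2 change was 0.75 (SE 0.28, interval 0.13 to 1.36, adjusted p = 0.283), and every pentanoate library was above every control library, by as little as 2.64 against 2.62 CPM. In that comparison 0.803% of genes were called (0.782% higher, 0.0213% lower), and libraries did not overlap in 18.5% (9.38% higher, 9.12% lower). Between the acids the Dgat2 difference, pentanoate minus butyrate, was −0.71 (interval −1.29 to −0.14, adjusted p = 0.182), which was not called, and the libraries overlap.

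Dgat1 (ENSMUSG00000022555, chromosome 15, 76502015 to 76511953, minus strand) ran from 37.0 to 43.1 CPM in control libraries, from 31.8 to 40.7 in butyrate libraries and from 41.7 to 41.9 in those with pentanoate. Its change was −0.16 with butyrate (interval −0.39 to 0.08, adjusted p = 0.4) and 0.05 with pentanoate (−0.19 to 0.28, adjusted p = 0.87). Dgat1 stayed the more abundant enzyme transcript. Per kilobase of gene model, its level within a library was 15.9 to 26.8 times that of Dgat2 in control cells, 5.21 to 9.43 times in butyrate cells and 9.47 to 16.0 times in pentanoate cells. The groups of this ratio do not overlap between butyrate and either other group, and pentanoate overlaps control by 1 library, a description with no test.

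**Figure D2:**
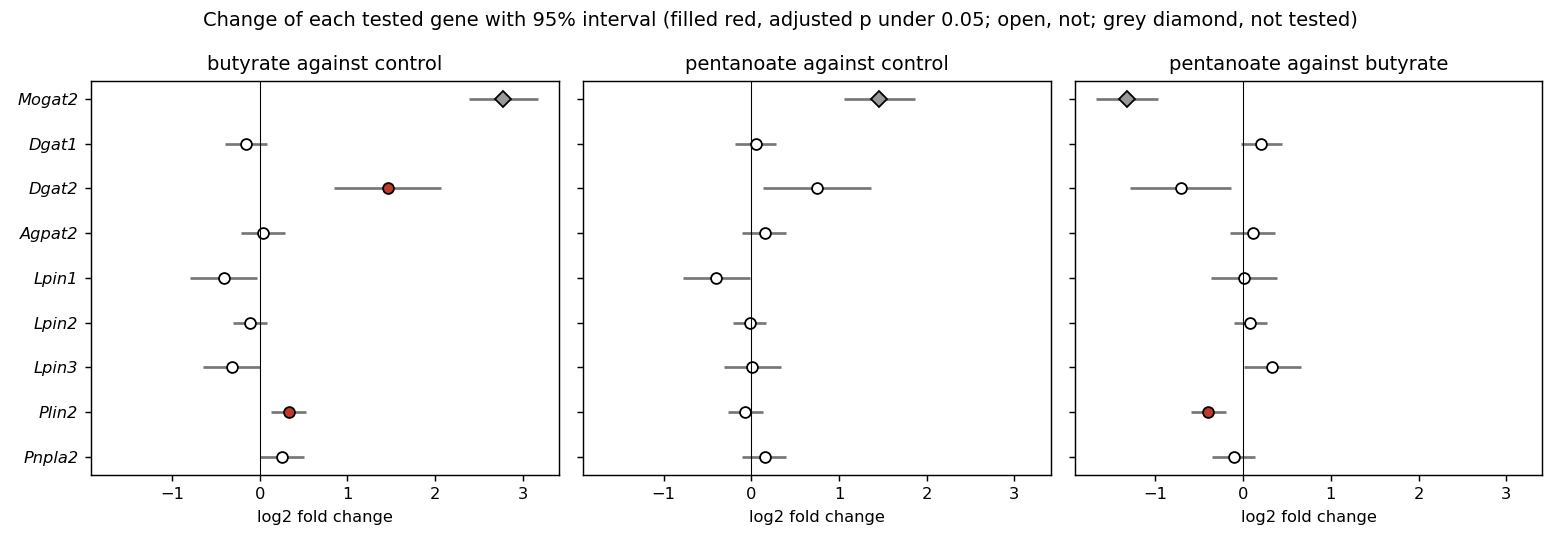
Fitted log2 fold change (x axis) of the 9 tested genes (y axis) in the 3 comparisons, with bars for the 95% interval; red points had an adjusted p under 0.05, open points did not, and the grey diamond marks Mogat2, which was not tested. Dgat2 and Plin2 are called for butyrate against control, Plin2 alone for pentanoate against butyrate, and no member for pentanoate against control.

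Mogat2 and Dgat2 lie next to each other on chromosome 7, on the same strand, which the choice of genes did not use. The gap between them is 36.4 kb and their starts are 55.9 kb apart, with no other gene of the table wholly inside the gap. The 2 enzymes belong to one protein family, together with Mogat1, and Dgat1 belongs to another. The table places 35 other genes within 500 kb of Mogat2, and 14 of these have no count in any library. Of the 11 that were tested, Dgat2 was the only one called with butyrate, against the background of 11.4%, and 0 were called with pentanoate, where the background was 0.803%. Of the 11, DESeq2 called 3 with butyrate, where it called 14.5% of all genes, and 0 with pentanoate. The nearest tested genes on the other side were Gm26705, a lincRNA, at −0.72 (SE 0.35, adjusted p = 0.225) and Map6, which encodes a microtubule-binding protein, at 0.33 (SE 0.14, adjusted p = 0.172) with butyrate. Beyond Dgat2, Uvrag, an autophagy gene, stood at 0.29 (SE 0.12, adjusted p = 0.137). With the replicate number as a block 5 of the 11 were called, all higher, where that fit called 20.7% of all genes. Besides Dgat2 these were Uvrag (0.30, adjusted p = 0.0494), Rps3 (0.23, 0.0456), Arrb1 (0.33, 0.0247) and Wnt11 (1.41). Wnt11 was under the low-count limit in the control libraries, with as few as 2 counts, and entered the fit through treated ones. No p-value is therefore given for Wnt11, though it is counted in the 5. With no block, 3 neighbours were called without control 3 and 2 without butyrate 1. An antisense gene, Gm45012, overlaps Mogat2 on the opposite strand, and with the strand setting of the counting unknown, reads of the pair cannot be told apart. Gm45012, which also reaches into the gap, held 17 counts over all 9 libraries.

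**Figure D3:**
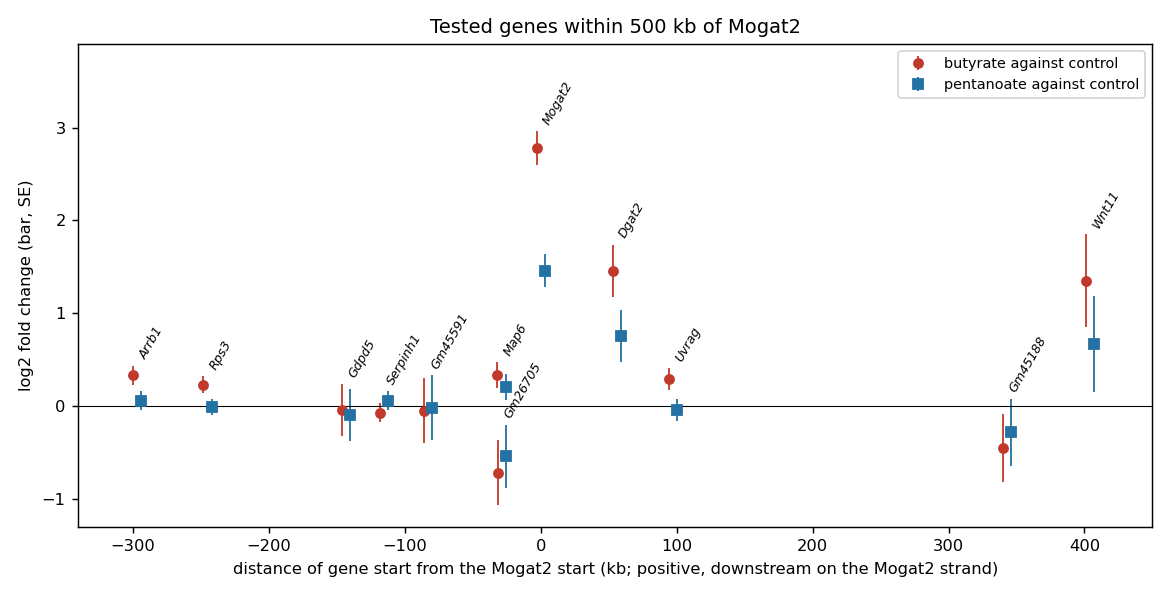
Log2 fold change against control (y axis, bars are SE) of the 12 tested genes within 500 kb of Mogat2, Mogat2 included, by the distance of their start from the Mogat2 start in kb (x axis). Mogat2 stands at 2.78 with butyrate and 1.46 with pentanoate, Dgat2 at 1.46 and 0.75, and Wnt11, at 0.387 ± 0.255 CPM in control, at 1.35 and 0.67. The other 9 genes lie between −0.72 and 0.33 with butyrate.

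Because these enzymes are related, counts of one could include reads of another if their sequences were alike over a read's length. In the longest complete coding sequences of GENCODE release M21 (GRCm38), the longest stretch of identical bases was 14 bases between Mogat2 and Dgat2 (AGCCCATCACCACC), 11 between Mogat2 and Mogat1 and 10 between Mogat1 and Dgat2. The coding sequences around the first of these are shown to let the 3 genes be compared, with capitals for the bases identical in all 3. They are coding bases 813 to 866 of Mogat2, 975 to 1028 of Dgat2 and the aligned 816 to 869 of Mogat1, each spanning an intron.
Mogat2, chr7:99219944-99222290, minus strand: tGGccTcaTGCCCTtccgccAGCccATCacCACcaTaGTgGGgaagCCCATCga
Dgat2, chr7:99154685-99157014, minus strand: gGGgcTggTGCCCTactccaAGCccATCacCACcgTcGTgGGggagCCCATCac
Mogat1, chr1:78529215-78537959, plus strand: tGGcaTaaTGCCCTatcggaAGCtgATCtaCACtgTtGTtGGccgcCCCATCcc
Of these 54 bases, 29 are identical in all 3 genes, and Dgat2 matches Mogat2 at 41. The lipins are somewhat closer to each other, with shared stretches of up to 24 bases (Lpin1 and Lpin3), 19 (Lpin1 and Lpin2) and 17 (Lpin2 and Lpin3). The sources used here do not give the read length.

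Of Agpat2 and the 3 lipins, which lead to diacylglycerol, 0 were called in any comparison by edgeR, DESeq2 or limma-voom. In each comparison 1 had an unadjusted p under 0.05 by edgeR. Of all 14066 genes 3655 had such a p for butyrate against control, 1932 for pentanoate against control and 2457 between the acids. Agpat2 (ENSMUSG00000026922, chromosome 2, 26593057 to 26604417, minus strand) had 32.7, 34.7 and 27.9 CPM in control, 30, 36.8 and 31.3 with butyrate and 36.4, 34.5 and 34.7 with pentanoate, and the groups overlap. Its change with butyrate was 0.04 (interval −0.21 to 0.29, adjusted p = 0.859) and with pentanoate 0.15 (−0.11 to 0.40, adjusted p = 0.58).

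Lpin1 (ENSMUSG00000020593, chromosome 12, 16535669 to 16610966, minus strand), the main lipin of skeletal muscle and fat, had 25.7, 19.3 and 29.0 CPM in control. It had 18.9, 19.8 and 16.9 CPM with butyrate and 18.7, 15.3 and 21.9 with pentanoate. Control library 2 was down among the treated libraries, so the groups overlap. The change was −0.41 with butyrate (SE 0.17, interval −0.79 to −0.03, adjusted p = 0.157) and −0.40 with pentanoate (SE 0.17, interval −0.78 to −0.02, adjusted p = 0.338). Without control 2 the butyrate value was −0.55 and was called (adjusted p = 0.0463). The acids differed by 0.01 (interval −0.37 to 0.39).

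Lpin3 (ENSMUSG00000027412, chromosome 2, 160880670 to 160906002, plus strand), a lipin better known from gut and liver, had 40.3, 35.0 and 27.2 CPM in control. With butyrate it had 30.1, 24.7 and 27.2 CPM, and with pentanoate 37.2, 30.6 and 35.6. Control 3, the library with the high mitochondrial share, was level with butyrate library 3, and its log2 CPM minus the mean of controls 1 and 2 was −0.47. The change with butyrate was −0.32 (SE 0.15, interval −0.65 to 0.01, adjusted p = 0.203), and without control 3 it was −0.45 and was called (adjusted p = 0.0273). Pentanoate libraries all lay above butyrate libraries for Lpin3, with a difference of 0.33 (interval 0.01 to 0.66, adjusted p = 0.277), in a comparison where the libraries of 30.8% of all genes did not overlap (15.7% higher and 15.1% lower with pentanoate). Lpin2 (ENSMUSG00000024052, chromosome 17, 71182560 to 71249817, plus strand) had 72.7 ± 3.68 CPM in control, 67.6 ± 3.82 with butyrate and 71.6 ± 3.36 with pentanoate, with changes of −0.11 (interval −0.30 to 0.08) and −0.02 (−0.21 to 0.17) against control.

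Set per kilobase, Lpin3 held 44.3% to 55.9% of the summed lipin level in control libraries, 48.1% to 51.3% in butyrate and 52.7% to 55.5% in pentanoate libraries, and Lpin1 held 11.6% to 18.1%, 11.9% to 14.7% and 10.1% to 13.0%. The Lpin1 shares overlapped between every pair of groups, and for Lpin3 control spanned the range of both acids. These shares depend on the gene lengths used, 9665 bases for Lpin1, 12233 for Lpin2 and 3694 for Lpin3. The coding sequences compared above are nearer in length, at 2772, 2793 and 2574 bases. In CPM, with no length in it, Lpin2 was the highest lipin in every group (72.7 in control, against 34.2 for Lpin3).

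Plin2 (ENSMUSG00000028494, chromosome 4, 86648386 to 86670060, minus strand), the droplet coat gene, was the most abundant member per kilobase in every group. It had 123, 109 and 118 CPM in control, 146, 148 and 146 with butyrate and 116, 99.6 and 119 with pentanoate. The butyrate libraries were nearly level with each other and above all others, while control and pentanoate overlapped. Plin2 rose with butyrate by 0.33 (SE 0.09, interval 0.13 to 0.53, adjusted p = 0.0409), or 1.26-fold, and was lower with pentanoate than with butyrate by −0.40 (SE 0.09, interval −0.60 to −0.20, adjusted p = 0.0426). Against control, pentanoate stood at −0.07 (interval −0.27 to 0.13, adjusted p = 0.767). Both calls of Plin2 were close to the threshold. The first was lost with no filter (adjusted p = 0.0727), with only the control and butyrate libraries in the fit (0.067), and without control 1 (adjusted p = 0.0586), control 2 (0.0899), butyrate 1 (0.105), butyrate 2 (0.122), butyrate 3 (0.11), pentanoate 1 (0.0606) or pentanoate 3 (0.0526), with values of 0.29 to 0.38 throughout. The second was lost without any 1 of the butyrate or pentanoate libraries (0.0725 to 0.15).

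Pnpla2 (ENSMUSG00000025509, chromosome 7, 141455198 to 141460743, plus strand), which starts triglyceride breakdown, had 29.6, 25.2 and 24.6 CPM in control, 30.1, 35.8 and 29.3 with butyrate and 29.3, 28.5 and 30.2 with pentanoate. Control 1 reached into the range of both acids. The change was 0.26 with butyrate (SE 0.11, interval 0.01 to 0.51, adjusted p = 0.181) and 0.15 with pentanoate (interval −0.11 to 0.40, adjusted p = 0.584). The butyrate value was not called in any of the 18 alternatives (adjusted p 0.116 to 0.506).

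In all, 2 of the 8 tested members other than Mogat2 were called with butyrate, both higher, where 11.4% of all genes were called, and the median log2 change of the 8 was −0.04 against −0.02 over all genes. For pentanoate against control 0 of 8 were called by edgeR, with 2 at an unadjusted p under 0.05 (Dgat2 and Lpin1) and 0 by DESeq2 or limma-voom. There 0.803% of all genes were called, and 1932 of 14066 had an unadjusted p under 0.05 by edgeR. The median of the 8 was 0.03 against −0.01. Between the acids 1 of 8 was called (Plin2, lower with pentanoate), where 3.42% of all genes were (1.81% higher, 1.61% lower), with medians of 0.04 and 0. This was the 1 pair of compounds compared, at matched dose and time. Both comparisons with control share the same 3 control libraries.

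The order of levels per kilobase put Plin2 first in every group (33.3 ± 2.04 CPM per kilobase in control), then Agpat2 (14.9 ± 1.66) and Dgat1 (13.2 ± 1.02), which overlapped in control. This order, too, depends on the gene lengths used. Mogat2 stood in 8th place of 10 in control at 1.13 ± 0.106 CPM per kilobase, in 5th place with butyrate at 7.76 ± 0.892 and in 7th with pentanoate at 3.10 ± 0.393. With butyrate its libraries overlapped those of Lpin3 (7.41 ± 0.735). Dgat2 was in 9th place in each group, at 0.662 ± 0.168, 1.83 ± 0.363 and 1.11 ± 0.304, and with butyrate it overlapped Lpin1. Within a library, the level of Mogat2 per kilobase was 1.38 to 1.97 times that of Dgat2 in control cells, 3.99 to 4.81 times in butyrate cells and 2.45 to 3.26 times in pentanoate cells. This ratio was highest in the butyrate libraries, with no overlap among the groups. It is a description with no test, since the set was chosen by the counts of Mogat2.

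The 5 genes whose log2 CPM over the 9 libraries was most like that of Mogat2, among 13106 compared, included Dnajc22, which encodes a J-domain protein (Pearson's r = 0.990), Fndc5, the precursor of irisin (0.988), Kif1a, a kinesin motor of neurons (0.987), and the serine protease gene Klk8 (0.987). All 9 points share the 3 group means, so these values describe a common pattern of groups and carry no p-value. Fndc5 had 0.405 ± 0.18 CPM in the control group, 3.77 ± 0.52 with butyrate and 1.23 ± 0.20 with pentanoate, and Kif1a had 29.0 ± 1.39, 87.7 ± 6.41 and 53.7 ± 1.46. Dgat2 was the member nearest to Mogat2, with r = 0.94 and rank 125, and Pnpla2 (0.73) and Plin2 (0.71) came at ranks 1141 and 1251. The other members did not follow Mogat2, with r = 0.13 for Agpat2, −0.52 for Dgat1, −0.56 for Lpin1, −0.59 for Lpin2 and −0.56 for Lpin3.

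Around these members the wider pathway was read from 5 lists of other genes, 70 in all, of which 69 were found and 50 tested. All 50 passed the low-count limit in the control libraries alone. With butyrate 3 were called higher and 3 lower, 12% of those tested against 11.4% of all genes, with a median of −0.06. Without control 3 the count was 12, and without butyrate 2 it was 3. Of the glycerolipid acyltransferases, 9 of 13 were tested, 1 rose and 1 fell. Gpam, which starts the glycerol phosphate route in mitochondria, went from 39.8 ± 0.567 CPM to 29.8 ± 1.31 (log2 change −0.42, SE 0.09, adjusted p = 0.0112). Leaving out butyrate 2 ended the Gpam call (adjusted p = 0.0675). Agpat3, an acyltransferase of phosphatidic acid and phospholipid synthesis, went from 111 ± 17.7 CPM to 151 ± 5.17 (log2 change 0.44, SE 0.11, adjusted p = 0.0328). The Agpat3 call was lost with only the control and butyrate libraries (0.0817) and without control 1, any butyrate library or pentanoate 3 (0.0569 to 0.125).

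Of 7 genes of glycerol 3-phosphate supply 4 were tested, and Gpd2, the mitochondrial glycerol 3-phosphate dehydrogenase, was at 109 ± 18.2 CPM in control and rose to 167 ± 16.0 (log2 change 0.63, SE 0.13, adjusted p = 0.00993). Of 15 genes for the lipin phosphatase and the use of diacylglycerol 14 were tested. Plpp3, a lipid phosphate phosphatase of the cell surface, rose from 30.9 ± 4.40 CPM to 57.4 ± 2.99 (log2 change 0.89, SE 0.14, adjusted p = 0.00237). Dgkh, a kinase that turns diacylglycerol back into phosphatidic acid, fell from 16.7 ± 2.91 CPM to 9.94 ± 1.53 (log2 change −0.75, SE 0.20, adjusted p = 0.0336), which was not called on leaving out control 3, any butyrate library or pentanoate 1 (0.0534 to 0.141).

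Of 19 genes of droplet formation and coat 11 were tested. Plin4, a perilipin related to Plin2, fell from 29.6 ± 9.83 CPM to 11.3 ± 1.71 with butyrate (log2 change −1.40, SE 0.24, adjusted p = 0.00447), and stood at 27.5 ± 4.03 with pentanoate. The coat genes Plin1 and Plin5 had 3 and 6 counts in all libraries together, and Cidea and Cidec had 0. Of 16 lipolysis genes 12 were tested and 0 called by edgeR, with 5 at an unadjusted p under 0.05. Of all 14066 genes 3655 had such a p with butyrate. G0s2, an inhibitor of Pnpla2, stood at 49.9 ± 18.9 CPM in control and 25.9 ± 9.33 with butyrate (adjusted p = 0.0772 by edgeR). Its libraries overlapped, at 28.8 to 65.5 CPM in control and 19.2 to 36.5 with butyrate. It was called with DESeq2 (adjusted p = 0.0181) and with the replicate block (−0.93, adjusted p = 0.00516). Without control 3 (0.0239) or butyrate 1 (0.0385) it was also called, and in the remaining alternatives it was not. With the block 13 of the 50 genes were called for butyrate, 7 higher and 6 lower, beside 20.7% of all genes.

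With pentanoate 0 of the 50 were called against control by edgeR or DESeq2. By edgeR 4 had an unadjusted p under 0.05, as did 1932 of all 14066 genes. With the block 1 was called (Plpp3, 0.41, adjusted p = 0.0371), beside 3.65% of all genes. Between the acids 3 of the 50 were called, 6% against 3.42% of all genes, and with the block 7 were, beside 10.5% of all genes. With no block the count was 8 without control 3, and 0 to 1 without any 1 library of either acid. Gpd2 was lower with pentanoate by −0.57 (SE 0.13, adjusted p = 0.0361), Plin4 higher by 1.29 (SE 0.24, adjusted p = 0.0178) and Lipa, the lysosomal acid lipase, lower by −0.42 (SE 0.10, adjusted p = 0.0456). The Gpd2 call was lost without any 1 of the 6 libraries of both acids (0.0536 to 0.147) and that of Lipa without any of these or control 1 (0.0515 to 0.154). The Plin4 call was lost without butyrate 2, butyrate 3, pentanoate 1 or pentanoate 2 (0.0696 to 0.11).

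**Figure D4:**
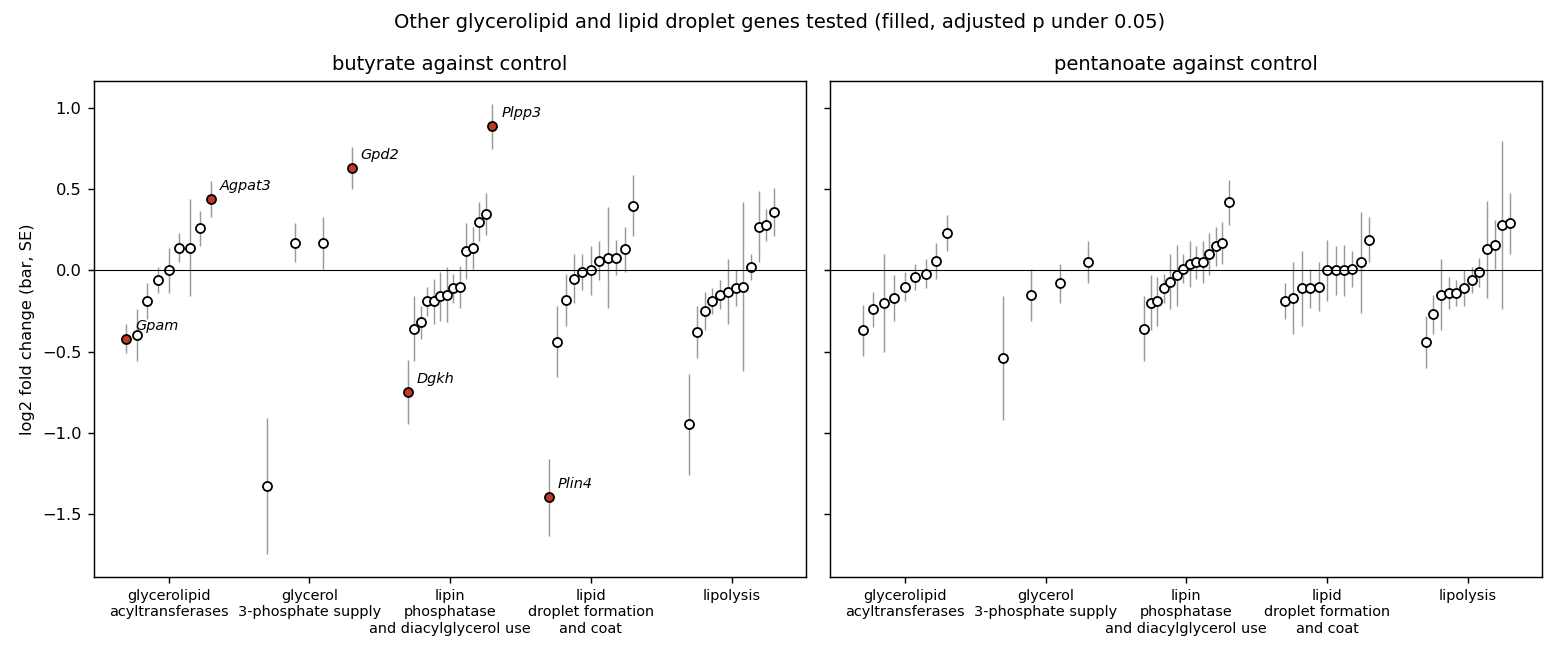
Log2 fold change against control (y axis, bars are SE) of the 50 tested genes in 5 lists (x axis, sorted by value within a list), for butyrate on the left and pentanoate on the right; filled points had an adjusted p under 0.05. Butyrate has 3 called genes above 0 (Plpp3, Gpd2, Agpat3) and 3 below (Plin4, Dgkh, Gpam), and pentanoate has none.

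Markers of fat cells were read beside these genes, since triglyceride genes are abundant in adipocytes. Of 15 markers 4 were tested. The summed level of all 15 lay between 47.9 and 53.9 CPM in the control libraries and between 49.0 and 64.5 in those with pentanoate, and it was lowest with butyrate, between 38.7 and 45.7. Among these markers Adipoq, Lep, Retn, Cfd, Cd36 and Cidec had 3, 0, 1, 2, 2 and 0 counts over all 9 libraries. Fabp4, a fatty acid binding protein, had 8 counts in control, 54 with butyrate and 33 with pentanoate. It was under the low-count limit in the control libraries and entered the fit only through treated ones, so no test is given for it. Cebpa, a transcription factor of fat cell differentiation, fell from 33.3 ± 3.16 CPM to 21.1 ± 2.90 (log2 change −0.65, SE 0.15, adjusted p = 0.018), and missed the threshold on leaving out control 1 (0.0674) or butyrate 2 (0.086). Cebpa made the largest part of the summed level, so the lower sum with butyrate mainly follows this 1 gene. Pparg had 9.39 ± 3.15 CPM in control and 9.04 ± 1.69 with butyrate. Lipe had 8.28 ± 1.58 and 10 ± 0.83, and neither Pparg nor Lipe was called.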

How the data were processed

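RNA-seq of C2C12 cells gave 9 libraries in 3 groups of 3. The values the authors deposited are unnormalized counts of each gene, whole numbers with a different total per library, beside the authors' symbols, identifiers, coordinates and gene lengths per the file headers. The build is GRCm38 (mm10), per the submitters' processing notes. For the aligner, counting program and strand setting, nothing was found (not given in the sources used here). Of 54697 lines, 165 carry no Ensembl identifier and were kept.

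Counts were filtered with filterByExpr (14066 genes) and scaled by TMM. All 9 libraries entered 1 fit of edgeR's quasi-likelihood test (group as sole factor, robust), with Benjamini-Hochberg adjustment per comparison. SE was taken from the fold change and its F statistic (log2 change over root F) and is approximate for low counts and changes near 0. CPM per kilobase uses the authors' gene length. Same-numbered libraries deviated together (r = 0.20 to 0.41 in 9 pairs, above 0.1), so a fit with the numbers from the labels as a block was run as an alternative. The main p-values, calls and shares of all genes come from the fit without the block, which leaves this pairing out. The code was tested on simulated data.

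Members, lists and tests were chosen with earlier results of these data known. Named genes were all members, of each list up to 4 called genes per comparison, called neighbours, and the 5 genes most correlated with Mogat2 among those with at least 1 CPM in the highest group (prior count 2), of which 1 is not reported here. Other genes near Mogat2, the marker genes and G0s2 were named after their values were seen. Alternatives were other scalings, filters and tests, fits of 2 groups alone, the block, and leaving out each library. The software was edgeR 4.0.16 with limma 3.58.1 and DESeq2 1.42.0 under R 4.3.3, and Python 3.11.15, pandas 2.3.3 and matplotlib 3.10.9.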

Additional observations from a re-analysis of the deposited data

How the results depend on the processing

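The Mogat2 value kept its direction in every alternative, at 2.71 to 2.88 for butyrate against control, 1.34 to 1.54 for pentanoate against control and −1.45 to −1.25 between the acids. The Dgat2 call with butyrate held in all 17 alternatives in which it was tested (1.32 to 1.70, adjusted p 6.77e-05 to 0.0339), and at a mean of at least 5 CPM it was not tested. The scalings moved the median of all genes by less than 0.1. With upper-quartile scaling 68.8% of the calls for butyrate against control were higher, against 56.5%, and 41.1% against 53% between the acids.

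For butyrate against control, the members called numbered 1 in place of 2 with no filter, with the 5 CPM filter and with only the 2 groups compared, and 1 to 3 when a library was left out. The neighbours of Mogat2 called numbered 2 in place of 1 with upper-quartile scaling or library totals, 0 with the 5 CPM filter, 3 with the DESeq2 Wald test, 5 with the replicate block and 1 to 3 with a library left out. Other pathway genes numbered 13 with the block in place of 6, and 3 to 12 with a library left out. All genes called numbered 1023 with the 5 CPM filter, 2916 with the replicate block, 1004 with only the 2 groups and 753 to 2285 with a library left out (753 without butyrate 2, 827 without butyrate 3, 953 without control 1), in place of 1601.

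For pentanoate against control, genes called numbered 278 with no filter, 363 with DESeq2, 514 with the block, 25 with only the 2 groups and 27 to 139 with a library left out, in place of 113, with 27 without pentanoate 3 and 41 to 68 without any other library but control 3. Members and neighbours called stayed at 0, and of the other pathway genes 1 was called with the block.

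Between the acids, genes called numbered 319 with the 5 CPM filter, 951 with DESeq2, 1483 with the block, 1365 with only the 2 groups and 75 to 1469 with a library left out, in place of 481, with 1469 without control 3 and 75 to 253 without any 1 library of either acid. Members called numbered 0 to 1 with a library left out. Other pathway genes numbered 5 with no filter, 8 with DESeq2, 7 with the block, 7 with only the 2 groups and 0 to 8 with a library left out, in place of 3. With only the 2 groups 1 neighbour was called (Uvrag), in place of 0, and 0 with a library left out. The replicate block changed no call of a member. The cause of these changes was not tested. Mogat1, with 3 counts in all, did not pass the low-count filter, and Mogat2 and Dgat2 rest on 104 and 103 counts over the control group.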
